A study of Mus musculus with 10 samples.

Results

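NF-kB is a family of transcription factors that carry signals of inflammation and cell survival to the nucleus. The genes described here are its subunits and the inhibitors that hold it in check, measured in the whole lung of mice kept in intermittent hypoxia or in normoxia. A gene entered if the annotation of the array gave a probe set that gene's symbol and no other, and where a gene had several such probe sets the one with the highest mean over all 10 arrays stood for it, with the others as a check. Of 10 genes sought, 9 had such a probe set, out of 12393 genes on the array chosen by the same rule. These were the subunit genes Nfkb2, Rel, Rela and Relb, the inhibitor genes Nfkbia, Nfkbib and Nfkbie, and Tnfaip3 and Birc3, and together they had 14 probe sets. Nfkb1, the gene of the p105 and p50 subunit, was not analysed here.

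The mice were male C57BL/6 animals aged 6 to 8 weeks, and total RNA of 1 whole lung was hybridised to each Affymetrix Mouse Genome 430A 2.0 array. The normoxia group and the intermittent hypoxia group held 5 animals each, and intermittent hypoxia means repeated spells of low oxygen. All were of the same strain, sex and age, and the labels name no other treatment or allele. How low the oxygen was, how long the exposure lasted and when the lungs were taken is not given in the sources used here. Because whole lung mixes many cell types, fewer cells of a type and less RNA per cell cannot be told apart in any value below. The surfactant gene Sftpc, a marker of the alveolar epithelium, had log2 levels of 14.50 to 14.72 on the 10 arrays, so every array carried the lung's own marker. Values are log2 probe set levels as the authors deposited them, and a difference of 1 on this scale is a doubling. Normoxia arrays 2, 3 and 4 stood apart, with a standard deviation over all probe sets of 1.89 to 1.93 against 1.99 to 2.05 on the other 7 arrays, and the differences whose call, sign or size turned on them are therefore given without them too.

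In the resting cell the p65 subunit (Rela) and its partners wait in the cytoplasm, bound by the inhibitor IkB-alpha, the product of Nfkbia. Signals from receptors of TNF, interleukin-1 or microbial products activate the IKK kinases, which mark IkB for destruction and free the dimer to enter the nucleus. There it switches on, among other genes, Nfkbia itself and Tnfaip3, whose product A20 edits ubiquitin chains on the receptor complexes, so the pathway shuts itself down. A slower, alternative arm runs through the processing of the Nfkb2 product p100 to p52, the partner of RelB, and answers signals such as lymphotoxin and CD40 ligand.

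Short sequences of the kind that NF-kB binds were sought in the promoters. RefSeq (GRCm38.p6) promoter sequences were matched for 8 of the 10 genes in 11 windows, each the 250 bases before a transcription start, and read on both strands. The kB consensus, the textbook binding motif of the family, was found in 7 of these windows and in 5 genes (Nfkb2, Rel, Nfkbia, Nfkbie and Tnfaip3), against 3.9% of 32851 windows of all genes. Below, all 9 matches stand in capitals within up to 10 flanking bases, 5′ to 3′ along the gene, and overlapping matches on the 2 strands are joined.
Nfkb2, chr19:46304688-46304718: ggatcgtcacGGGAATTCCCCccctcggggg
Nfkb2, same window, chr19:46304716-46304736: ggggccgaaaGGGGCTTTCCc
Nfkb2, another start, chr19:46305449-46305478: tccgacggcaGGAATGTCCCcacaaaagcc
Nfkb2, a further start, chr19:46305695-46305724: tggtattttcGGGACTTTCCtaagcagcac
Rel, chr11:23771041-23771071: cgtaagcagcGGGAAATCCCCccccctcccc
Nfkbia, chr12:55492657-55492686: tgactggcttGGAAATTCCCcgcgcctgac
Nfkbie, chr17:45555584-45555613: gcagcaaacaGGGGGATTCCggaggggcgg
Tnfaip3, chr10:19015516-19015545: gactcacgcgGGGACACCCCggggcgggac
Tnfaip3, chr10:19015411-19015432: aatttccatcGGAAATCCCCct
The whole window is shown for Nfkbia and Rela, since the results turn on these genes. In that of Nfkbia, on the minus strand at chr12:55492648-55492897, the capitals mark the kB match 29 to 20 bases before the start.
Nfkbia: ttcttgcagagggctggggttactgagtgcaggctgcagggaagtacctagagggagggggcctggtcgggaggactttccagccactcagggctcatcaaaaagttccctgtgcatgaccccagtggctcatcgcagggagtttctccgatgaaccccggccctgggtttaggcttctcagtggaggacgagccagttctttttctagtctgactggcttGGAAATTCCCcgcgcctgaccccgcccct
In that of Rela, on the plus strand at chr19:5637291-5637540, no kB consensus was found. The capitals there mark 2 GC boxes (GGGCGG, either strand), a motif that 32.7% of all windows held.
Rela: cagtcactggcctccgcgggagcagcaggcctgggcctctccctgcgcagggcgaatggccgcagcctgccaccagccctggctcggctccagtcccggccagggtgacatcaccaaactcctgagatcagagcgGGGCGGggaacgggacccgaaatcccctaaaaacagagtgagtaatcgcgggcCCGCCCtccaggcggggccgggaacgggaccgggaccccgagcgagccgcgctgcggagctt
A match describes the letters only, and binding was not measured here.

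Among the subunits, Rela was higher after intermittent hypoxia. It encodes p65, the subunit with the strong activating domain that pairs with p50 in the classical pathway. Its log2 levels were 11.07, 10.80, 10.82, 10.81 and 11.02 on normoxia arrays 1 to 5 and 11.29, 11.27, 11.23, 11.21 and 11.06 on hypoxia arrays 1 to 5. The highest normoxia array (array 1) lay just above the lowest hypoxia array (array 5), and otherwise the groups were apart. The mean rose from 10.90 ± 0.13 to 11.21 ± 0.09 (SD, n = 5 each), a log2 difference of 0.31 (SE 0.07, adjusted p = 0.0222 by limma) or 1.24-fold (95% confidence interval 1.11 to 1.38). It was the 1 gene of the 9 that passed the test at an adjusted p below 0.05, and no gene passed as lower. Of all 12393 genes 12.5% passed, 8.93% as higher and 3.6% as lower, so 1 of 9 (11.1%) is close to the background and is no result about the group as a whole. At an unadjusted p below 0.05, 3 of the 9 differed, Rela and Relb upward and Nfkbia downward. In none of the 9 genes were the groups free of overlap, against 8.61% of all genes.

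**Figure D1:**
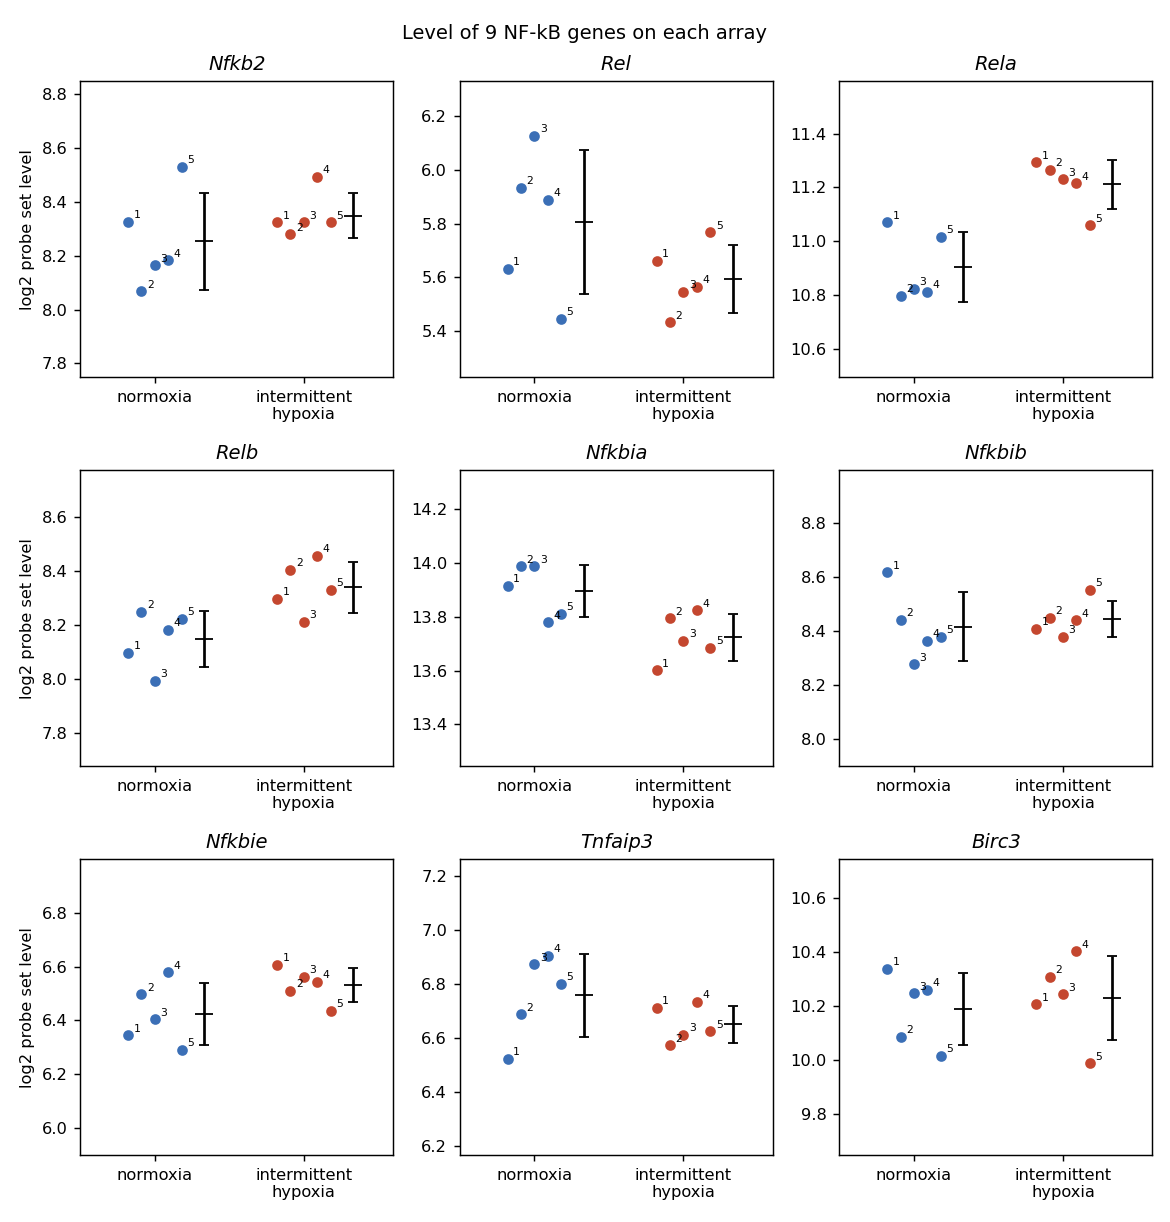
Log2 probe set level (vertical axes, each spanning the same range) of 9 NF-kB genes on the 5 normoxia and 5 intermittent hypoxia arrays. Points are single arrays with their replicate number, and bars are the mean and SD; Rela lies between 10.80 and 11.07 on the normoxia arrays and between 11.06 and 11.29 on the hypoxia arrays, and the groups overlap in every panel.

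The rise of Rela was smaller when the arrays of narrow spread were left out or the spread was made equal. Its 3 lowest values were those of normoxia arrays 2, 3 and 4. Normoxia arrays 1 and 5 lay near hypoxia array 5 and below the other hypoxia arrays. Without arrays 2 to 4 its difference was 0.17 and its limma adjusted p 0.537, with 2 normoxia arrays left. Quantile normalization, which gives every array the same distribution, lowered the difference to 0.16 (adjusted p = 0.0700). The call was also lost when any of 6 single arrays was left out, with an adjusted p of 0.0561, 0.0581 and 0.0634 without normoxia array 2, 3 or 4 and 0.0568, 0.0523 and 0.0511 without hypoxia array 1, 2 or 3. The part of the array spread in this rise was not tested further. The direction of the difference was positive in all of these settings.

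**Figure D2:**
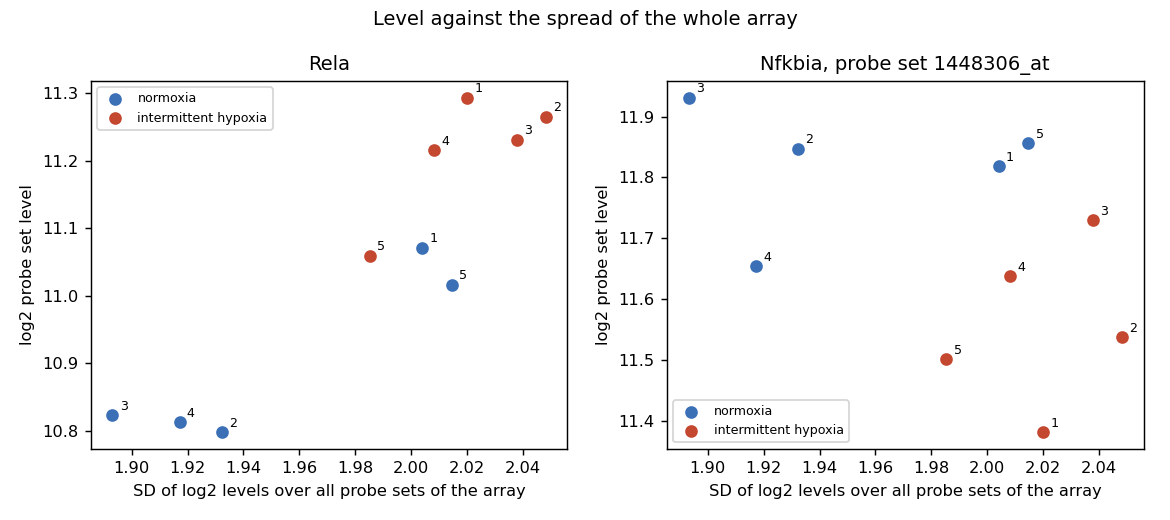
Log2 level of Rela (left) and of Nfkbia on probe set 1448306_at (right) against the standard deviation of the log2 levels over all probe sets of the same array. Each point is 1 array with its replicate number; normoxia arrays 2, 3 and 4, with a standard deviation of 1.89 to 1.93, have the 3 lowest Rela levels, while the Nfkbia levels of normoxia array 4 and array 3 are the lowest and highest of their group.

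Relb, whose product pairs with p52 in the alternative pathway, had the next largest positive difference of the 9. Its levels were 8.10, 8.25, 7.99, 8.18 and 8.22 in normoxia and 8.30, 8.40, 8.21, 8.46 and 8.33 in intermittent hypoxia, so that hypoxia array 3 alone lay within the normoxia range. The difference was 0.19 (SE 0.07, limma adjusted p = 0.0865), or 1.14-fold with an interval of 1.03 to 1.27, and it did not pass. Unlike that of Rela, it kept its size when normoxia arrays 2 to 4 were left out (0.18, adjusted p = 0.523) and under quantile normalization (0.16, adjusted p = 0.142). SAM, the permutation method that the series names, called Relb as higher at 0.0196 and, among the 9 genes, also Rela as higher and Nfkbia as lower, while it called 35.0% of all genes.

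Nfkb2, the gene of p100 and p52, showed no detectable difference. Its levels were 8.33, 8.07, 8.16, 8.18 and 8.53 in normoxia against 8.32, 8.28, 8.32, 8.49 and 8.32 in intermittent hypoxia, and all hypoxia values fell within the normoxia range. The difference was 0.09 (SE 0.09, adjusted p = 0.470), with an interval of -0.09 to 0.28. A further Nfkb2 probe set, 1429128_x_at, whose suffix marks probes that can match other transcripts, differed by 0.0034 (SE 0.07, adjusted p = 0.977).

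Rel encodes c-Rel, a subunit best known from lymphocytes. It had the lowest difference among the probe sets that stand for the 9 genes, but it did not pass. The normoxia levels were 5.63, 5.93, 6.13, 5.89 and 5.45, and the hypoxia levels were 5.66, 5.43, 5.55, 5.56 and 5.77. Normoxia arrays 2 to 4 lay above every other array, and arrays 1 and 5 fell among the hypoxia values. The difference was -0.21 (SE 0.12, limma adjusted p = 0.230), and without arrays 2 to 4 it was 0.06 (adjusted p = 0.917). Leaving out normoxia array 5 alone gave -0.30 and an adjusted p of 0.0495. Normoxia arrays 2 to 4, the 3 highest for Rel, were the 3 lowest for Rela.

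Of the inhibitors, Nfkbia had a negative difference on all 4 of its probe sets, and 2 of these passed the test as lower. Of all 22626 probe sets 11.9% passed, 8.5% as higher and 3.43% as lower. IkB-alpha is the main inhibitor of p65 dimers, and its gene is also induced by glucocorticoids. On the probe set with the highest mean, 1420088_at, the levels were 13.92, 13.99, 13.99, 13.78 and 13.81 in normoxia and 13.60, 13.79, 13.71, 13.82 and 13.69 in intermittent hypoxia. Hypoxia arrays 2 and 4 lay within the normoxia range. The difference was -0.17 (SE 0.07, limma adjusted p = 0.105), or 0.887-fold with an interval of 0.801 to 0.982, and this probe set did not pass by limma. SAM called it at 0.0231.

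Probe set 1448306_at, matched to the RefSeq transcript of Nfkbia in the annotation, read 11.82, 11.85, 11.93, 11.65 and 11.86 in normoxia and 11.38, 11.54, 11.73, 11.64 and 11.50 in intermittent hypoxia. Here 4 normoxia arrays lay above all hypoxia arrays, and normoxia array 4 lay among them. Its log2 level fell by 0.26 (SE 0.08, adjusted p = 0.0434 by limma), to 0.833 of the normoxia level. Probe set 1420089_at, at 8.31, 8.81, 8.76, 8.48 and 8.51 against 8.13, 8.44, 8.19, 8.23 and 8.26, fell by 0.33 (SE 0.10, adjusted p = 0.0480), with overlap through normoxia array 1 and hypoxia array 2. The remaining one, 1449731_s_at, whose suffix marks probes shared between transcripts, differed by -0.16 (SE 0.08, adjusted p = 0.200). Averaged over the 4 probe sets, the difference of Nfkbia was -0.23 and passed (adjusted p = 0.0435).

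**Figure D3:**
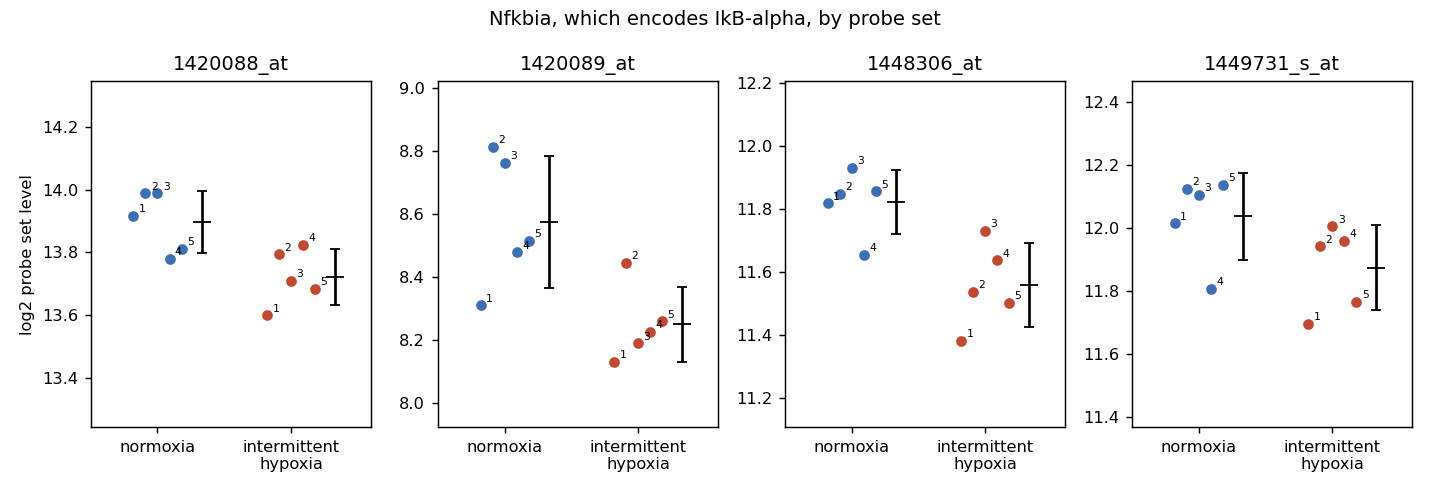
Log2 level of the 4 probe sets of Nfkbia on each array, in normoxia and in intermittent hypoxia (vertical axes of equal span). Points are single arrays with their replicate number, and bars are the mean and SD; the hypoxia mean is lower on every probe set, by 0.16 to 0.33, and the groups overlap on each.

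The 2 calls of Nfkbia were close to the threshold. Probe set 1448306_at no longer passed when 1 of 7 arrays was omitted, at adjusted p values of 0.0541, 0.0887 and 0.107 without normoxia array 1, 2 or 3 and 0.0974, 0.0864, 0.0597 and 0.0706 without hypoxia array 1, 2, 4 or 5. Probe set 1420089_at lost it without normoxia array 2, 3 or 4 (0.107, 0.120 and 0.0780) or hypoxia array 1, 3, 4 or 5 (0.104, 0.102, 0.0852 and 0.0655). With all arrays in, the call of 1448306_at was also lost with trend and robust variances (0.0567), with arrays weighted by quality (0.0524) and with the replicate number as a block (0.0670). Without normoxia arrays 2 to 4 together the 4 differences were -0.14, -0.16, -0.28 and -0.20, with adjusted p values of 0.342 to 0.653. Quantile normalization shifted the differences of Nfkbia downward, as it did that of Rela. This took those of Nfkbia further from 0 and that of Rela closer to it. The difference of 1448306_at became -0.42 (adjusted p = 0.0161), and 1449731_s_at then passed as well, at -0.31 (adjusted p = 0.0345). Across the 10 arrays, deviations from the group means correlated between Nfkbia probe sets with r from 0.284 to 0.908 (6 pairs, a description over arrays that the probe sets share).

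Other genes that glucocorticoids induce were lower on the same arrays. Of 14 on a list chosen with earlier results of these data known, 8 fell and 6 did not pass. All 14 had a negative difference, with a median of -0.48 against 0.01 over all genes. That is 57.1% called lower, beside 3.6% of all genes, and given how the list was chosen it is a description only. Ddit4, an inhibitor of mTOR, fell by 1.31 (SE 0.16), Fkbp5, a chaperone of the hormone receptor, by 1.12 (SE 0.14), the sulfotransferase gene Sult1a1 by 0.78 (SE 0.13) and Hif3a, of the hypoxia-inducible factors, by 0.51 (SE 0.06). Klf9 at -0.25 (SE 0.08) and Cebpd at -0.47 (SE 0.19) did not pass. Nor did Errfi1 at -0.37 (SE 0.15), Per1 at -0.30 (SE 0.21), Dusp1 at -0.13 (SE 0.11) and Sgk1 at -0.08 (SE 0.11). The calls of Ddit4, Fkbp5, Sult1a1 and Hif3a held when any 1 array was omitted and were lost without normoxia arrays 2 to 4, where the differences were -1.15 (adjusted p = 0.0573), -0.84 (0.0739), -0.77 (0.177) and -0.51 (0.0573). The mean log2 level of the list was 11.07 to 11.24 on the normoxia arrays and 10.38 to 10.78 on the hypoxia arrays, without overlap. The part of this shift in the lower Nfkbia values was not tested.

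Neither of the other 2 IkB genes passed. Nfkbib encodes IkB-beta, an inhibitor that is resynthesised more slowly. It read 8.62, 8.44, 8.28, 8.37 and 8.38 in normoxia and 8.41, 8.45, 8.38, 8.44 and 8.55 in intermittent hypoxia, a difference of 0.03 (SE 0.07, limma adjusted p = 0.799) with an interval of -0.12 to 0.18. The hypoxia values lay inside the normoxia range throughout. Nfkbie encodes IkB-epsilon, another inhibitor that NF-kB induces. Its levels were 6.34, 6.50, 6.40, 6.58 and 6.29 in normoxia and 6.61, 6.51, 6.56, 6.54 and 6.43 in intermittent hypoxia, and the difference was 0.11 (SE 0.07, adjusted p = 0.294), with an interval of -0.04 to 0.26. Only hypoxia array 1 exceeded the highest normoxia array. The difference of Nfkbie was 0.21 (adjusted p = 0.361) without normoxia arrays 2 to 4.

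Neither ubiquitin-editing gene passed. Tnfaip3, the gene of A20, read 6.52, 6.69, 6.87, 6.90 and 6.80 in normoxia and 6.71, 6.57, 6.61, 6.73 and 6.63 in intermittent hypoxia. Its 3 highest values were those of normoxia arrays 3, 4 and 5, yet normoxia array 1 had the lowest of all. The difference was -0.11 (SE 0.08, limma adjusted p = 0.368), and the interval of -0.27 to 0.06 leaves out a change of 1 log2 unit in either direction. Without normoxia arrays 2 to 4 it was -0.011 (adjusted p = 0.988). Birc3 encodes cIAP2, a ubiquitin ligase of the TNF receptor complex that NF-kB induces. It read 10.34, 10.09, 10.25, 10.26 and 10.02 against 10.21, 10.31, 10.24, 10.40 and 9.99, a difference of 0.04 (SE 0.09, adjusted p = 0.780). The other Birc3 probe set, 1425223_at, differed by -0.16 (SE 0.10, adjusted p = 0.278), so the 2 probe sets had opposite signs and neither passed. They were at 0.05 and -0.18 without normoxia arrays 2 to 4.

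**Figure D4:**
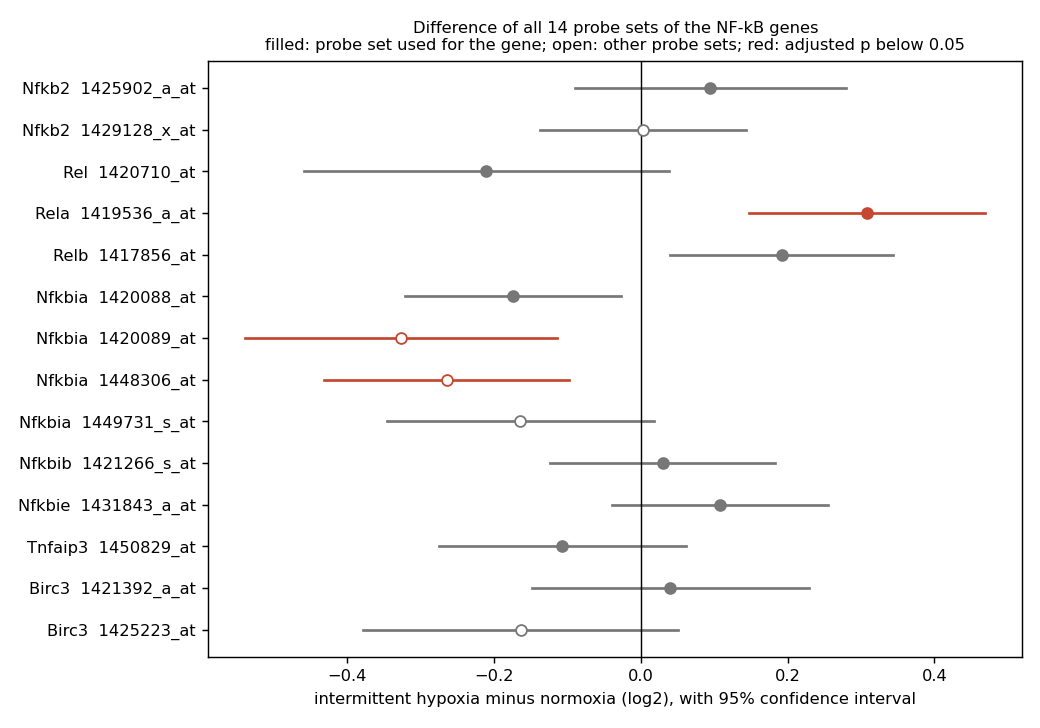
Difference between intermittent hypoxia and normoxia on the log2 scale (horizontal axis), with its 95% confidence interval, for all 14 probe sets of the 9 genes. Filled points are the probe sets that stand for the gene and red marks an adjusted p below 0.05; Rela (0.31) and 2 of the 4 Nfkbia probe sets (-0.33 and -0.26) are red, on opposite sides of 0.

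Across the 9 genes, each by the probe set that stands for it, the differences were small. They ran from -0.21 to 0.31, with 6 positive and 3 negative, and the median was 0.04 against 0.01 over all genes. The median size regardless of sign was 0.11, against 0.12 over all genes. No interval of these 9 probe sets reached beyond 0.47 log2 units in either direction, so a change of 1 log2 unit lay outside each of them. The interval of the Nfkbia probe set 1420089_at, used as a check, reached -0.54. The genes whose deviations from the group means were most like those of Rela over the 10 arrays were Fbxo8 (r = 0.972), Pnpla8 (r = 0.970) and Tmem176a (r = 0.966). For Nfkbia, by probe set 1420088_at alone, these were Prss3 (r = 0.981), Mgat4b (r = 0.936) and 1700102P08Rik (r = 0.918). These are the highest of all genes on the array and serve as a description of these arrays. With the other Nfkbia probe sets 1420088_at had a lower r, of 0.603, 0.644 and 0.688.

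Genes of the pathway around the 9 were taken from lists by role, each gene by its own highest probe set. These lists, too, were chosen with earlier results of these data known. Of 91 measured pathway genes 15 rose, 2 fell and 74 did not pass, which is 18.7% called beside the background of 12.5% over all genes. Of 10 genes for the IKK kinases and their subunits none passed by limma, and 2 were below an unadjusted p of 0.05. These were Ikbkg, the regulatory subunit NEMO, at 0.19 (SE 0.06, adjusted p = 0.0530), and Ikbkb, the main IkB kinase, at 0.25 (SE 0.08, adjusted p = 0.0547). With a gene's probe sets averaged, Ikbkg was at 0.03 (adjusted p = 0.705) and Ikbkb at 0.08 (0.264), and quantile normalization put Ikbkb at 0.10 (0.274). Of 3 atypical IkB genes none passed, with Nfkbiz at 0.47 (SE 0.23, adjusted p = 0.179) and Bcl3 at 0.27 (SE 0.14, adjusted p = 0.194), and 0 were below an unadjusted p of 0.05.

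Among 14 adaptor and ubiquitin ligase genes 3 rose and none fell, with a list median of 0.11. That is 21.4% called, beside 12.5% of all genes, 8.93% as higher and 3.6% as lower. Rbck1, which encodes HOIL-1 of the linear ubiquitin ligase, rose by 0.35 (SE 0.09), Irak1, a kinase of interleukin-1 and Toll-like receptors, by 0.31 (SE 0.09) and Traf5, an adaptor of TNF-family receptors, by 0.28 (SE 0.07). Bcl10, an adaptor of antigen receptor signals, at 0.27 (SE 0.09) and Traf1 at -0.25 (SE 0.09) did not pass. Of 14 genes for deubiquitinases, A20 partners and IkB degradation 2 rose, Otulin, which removes linear ubiquitin chains, by 0.29 (SE 0.06, limma adjusted p = 0.0135) and Commd1, which promotes the removal of p65, by 0.38 (SE 0.10). Skp1 (0.25, SE 0.09) and Cul1 (0.19, SE 0.07), parts of the ligase that marks IkB for degradation, did not pass. In this second list 14.3% were called, close to the 12.5% over all genes.

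On the input side, 3 of 10 receptor genes rose and none fell, beside 8.93% of all genes called higher and 3.6% called lower. These were Tnfrsf13c, the BAFF receptor of B cells, by 0.35 (SE 0.10), Cd40, by 0.29 (SE 0.08), and the TNF receptor gene Tnfrsf1b, by 0.26 (SE 0.07). Tlr2 differed by 0.41 (SE 0.13, limma adjusted p = 0.0523) and Tnfrsf1a by 0.23 (SE 0.10, adjusted p = 0.128). Of 9 ligand genes 1 rose, Ltb, a lymphotoxin gene of lymphocytes, by 0.52 (SE 0.15), while the list's median was -0.10. That is 11.1% called, close to the 12.5% over all genes. Cd40lg at -0.28 (SE 0.09, adjusted p = 0.0550) and Lta at -0.21 (SE 0.12) did not pass.

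The output moved both ways. Of 31 genes that NF-kB can induce 6 rose, 2 fell and 23 did not pass, 25.8% called beside 12.5% over all genes, and the list's median was -0.01. Cd83, a surface protein of activated dendritic and B cells, rose by 0.70 (SE 0.14, limma adjusted p = 0.0118), the chemokine gene Ccl5 by 0.60 (SE 0.14, adjusted p = 0.0188) and Icam1, an adhesion receptor for leukocytes, by 0.53 (SE 0.10, adjusted p = 0.00915). Cxcl13, the chemokine that attracts B cells, fell by 0.54 (SE 0.12, adjusted p = 0.0178). Vcam1 at 0.35 (SE 0.12, adjusted p = 0.0779) and Ccl20 at -0.40 (SE 0.15, adjusted p = 0.0861) did not pass. Each of these genes has other regulators as well. Of the 14 named pathway genes that did not pass by limma, SAM called 11, all but Nfkbiz, Bcl3 and Lta. These 14 were named for the smallest p among the genes that did not pass, and SAM called 35.0% of all genes. With the mean of the permuted counts SAM called 7 of the 14, beside 19.8% of all genes. Without normoxia arrays 2 to 4, 10 of the 14 had a difference over 1.5 times smaller in the same direction.

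**Figure D5:**
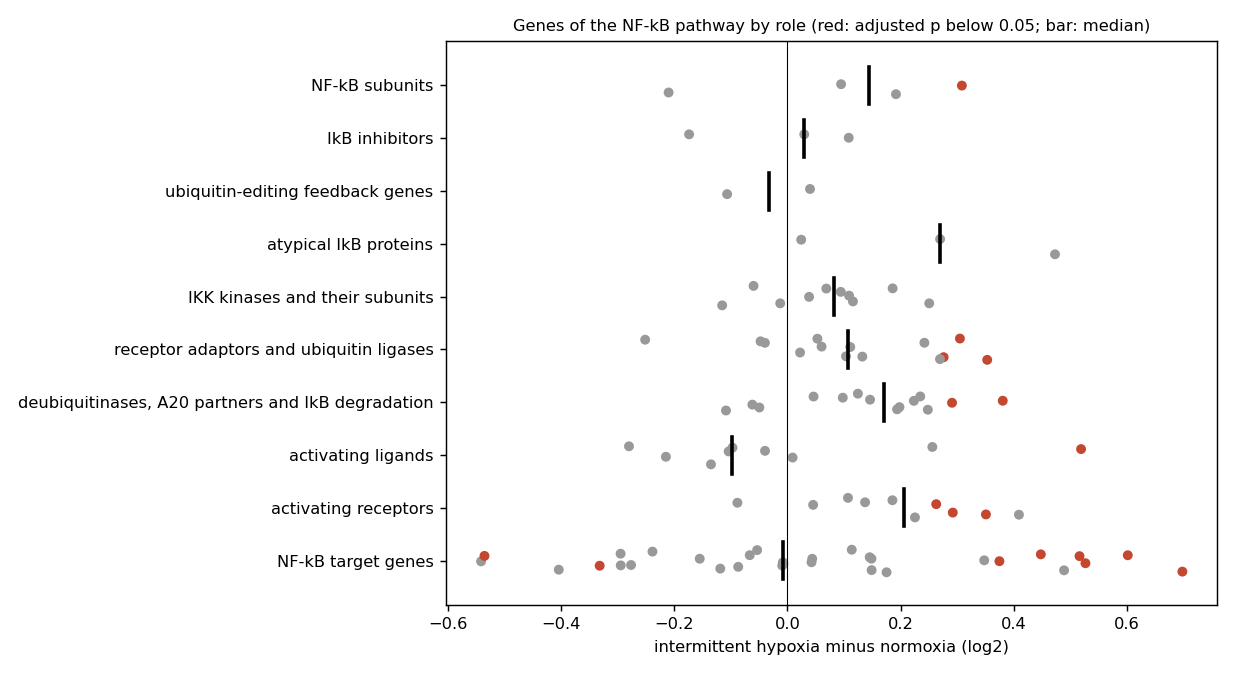
Difference between intermittent hypoxia and normoxia on the log2 scale (horizontal axis) for each measured gene of the NF-kB pathway, 1 point per gene, in rows by role. Red points have an adjusted p below 0.05 and black bars are the medians; the receptor row has a median of 0.21 with 3 red points, and the target row has red points on both sides of 0.

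Of the 13 named pathway genes that passed, from Rbck1 to Cxcl13, 5 passed in all 10 omissions of a single array, namely Otulin, Icam1, Cd83, Cxcl13 and Ccl5. Cxcl13 lost its call when its probe sets were averaged (-0.46, adjusted p = 0.256). The other 8 lost the call in several of these omissions. Without normoxia array 3 or 4 or hypoxia array 2 all 8 were lost, at adjusted p values of up to 0.0967, 0.0903 and 0.0837. Without normoxia array 2 or hypoxia array 1 the calls of 7 were lost (up to 0.0908 and 0.0887), without hypoxia array 4 those of 6 (up to 0.0882) and without hypoxia array 3 those of 5 (up to 0.0848). Without hypoxia array 5 the calls of Irak1, Ltb and Tnfrsf13c were lost (up to 0.0674), and without normoxia array 1 those of Ltb and Tnfrsf13c (up to 0.0564). Quantile normalization ended the calls of Irak1 (0.20, adjusted p = 0.0675), Tnfrsf1b (0.21, 0.0708) and Ltb (0.51, 0.0557), and averaged probe sets those of Irak1 (0.07, 0.369) and Tnfrsf1b (0.13, 0.138). The replicate block ended those of Traf5 (0.0574), Irak1 (0.0586), Commd1 (0.0541), Cd40 (0.0586) and Tnfrsf1b (0.0528). With normoxia arrays 2 to 4 left out together none of the 13 passed, and Icam1 was then at 0.38 (adjusted p = 0.251), Cd83 at 0.47 (0.382) and Otulin at 0.25 (0.265).

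Some markers of lymphocytes and macrophages were higher on the hypoxia arrays. Of 22 such markers 10 rose and 12 did not pass, beside 8.93% of all genes called higher. The marker lists were also chosen with earlier results of these data known. The 4 with a negative difference were Fabp4 (-1.24, limma adjusted p = 0.0504), Cd4 (-0.22), Pax5 (-0.13) and Cd3e (-0.09). Of 8 B cell markers 4 rose and none fell, and their mean log2 level was 7.75 to 8.36 on the normoxia arrays and 8.30 to 9.03 on the hypoxia arrays. T cell markers rose in 3 of 7 cases (6.92 to 7.13 against 7.12 to 7.46), and macrophage markers in 3 of 7 (9.04 to 9.37 against 9.01 to 9.68). Of 7 dendritic cell markers none passed by limma, with 3 below an unadjusted p of 0.05 (7.48 to 7.62 against 7.49 to 7.69). Of 6 neutrophil markers 1 fell (8.53 to 9.78 against 8.44 to 8.94), beside 3.6% of all genes called lower. All 6 had a negative difference, with a median of -0.39, and 3 were below an unadjusted limma p of 0.05. Endothelial and alveolar epithelial markers rose in 1 of 7 and 1 of 8 cases, at 10.42 to 10.97 against 10.89 to 11.10 and 12.59 to 12.92 against 12.73 to 12.95. All 7 endothelial markers had a positive difference, with a median of 0.23, and 3 were below an unadjusted limma p of 0.05. The 1 that passed was Emcn, at 1.03 (SE 0.08). Of the 8 alveolar markers 6 were positive, with a median of 0.08, and 3 were below an unadjusted p of 0.05. No marker is listed at 0 in these log2 values. The part of these shifts in the values of Ltb, Cd40, Tnfrsf13c, Cd83, Icam1, Vcam1, Relb and Rela was not tested.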

How the data were processed

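Total RNA of 10 mouse lungs was measured on 10 arrays, 5 per group. The authors deposited log2 levels per probe set. Per the submitters' processing notes, RMA and affy were used, with no version or setting stated, so the normalization is not known in detail. The medians of the arrays were 7.69 to 7.73, and precision is limited by the number of arrays. The platform annotation gave 1 symbol for 20380 of 22626 probe sets, several for 691 and none for 1555.

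All probe sets were fitted with limma 3.58.1 (lmFit and eBayes, R 4.3.3), two-sided, with no filter. P-values were adjusted by Benjamini-Hochberg over the whole table, and an adjusted p below 0.05 passed. Intervals are 95% intervals of this fit. The p-values measure the spread between animals. The code was tested on simulated data.

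The genes and lists were chosen with earlier results of these data known. From each pathway list and the glucocorticoid list up to 4 genes that passed and up to 2 others, by smallest p, were named. For the glucocorticoid list the remaining genes that did not pass are given too. Of 108 pathway genes fixed, 91 had a probe set. The alternatives were SAM-style tests with 100 permutations, a replicate block, other normalizations, filters, variance models and thresholds, averaged probe sets per gene, and leaving out arrays. Promoters came from RefSeq (GRCm38.p6).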

Additional observations from a re-analysis of the deposited data

Results flagged for a closer look

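Of 94 groups of 5 arrays checked with Dixon's criterion, which chance alone exceeds in about 1 of 20, 8 held an array far from the others. The value given is the gap to the nearest array over the group's range. Nfkb2 was highest on hypoxia array 4, at 8.49 beside 8.32 on the nearest array (0.789), and so was the lower Birc3 probe set, at 6.51 beside 6.10 (0.805). Hypoxia array 2 was highest for Traf5 (0.793) and for Otulin (0.766), and normoxia array 2 was lowest for Otulin (0.727). Skp1 was lowest on hypoxia array 5 (0.727). Tnfrsf1b was highest in its group on normoxia array 1 (0.860), and Cd83 on normoxia array 5, at 8.44 beside 7.77 (0.910), which lies within the range of the hypoxia arrays.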

How the results depend on the processing

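Among the 9 genes, 1 passed in the analysis as reported, out of 1553 of 12393 genes. SAM with the median of the permuted counts called 3 of the 9 (Rela and Relb higher, Nfkbia lower) and 4333 genes, and with their mean, an alternative added after the counts were seen, 3 and 2449. Quantile normalization called 0 of the 9, each by the probe set that stands for it, with 54.9% of 1311 called genes higher against 71.3% of the 1553. The Nfkbia probe sets used as a check, 1420089_at, 1448306_at and 1449731_s_at, passed there as lower (limma adjusted p = 0.0443, 0.0161 and 0.0345). An adjusted p below 0.10 gave 2 and 2823, and averaging each gene's probe sets gave 2, Rela and Nfkbia. Leaving out 1 array gave 0 to 2 of the 9 and 562 to 2741 genes, the most without normoxia array 5. Without normoxia arrays 2 to 4 together 0 of the 9 and 10 genes passed. With the replicate number as a block, Rela alone passed (adjusted p = 0.0488), among 960 genes. The numbers did not pair the arrays (correlations of deviations of same-numbered arrays from -0.240 to 0.223), so the block result has no basis in the design. The median over all genes was 0.01 as reported and -0.01 after quantile normalization.

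Signs turned only for differences that had not passed. After quantile normalization the lower Nfkb2 probe set (1429128_x_at) was at -0.029, Nfkbib at -0.018 and Birc3 at -0.11, and with medians centred that Nfkb2 probe set was at -0.0031. The mean of both Birc3 probe sets was -0.062. With 1 array left out, 1429128_x_at ran from -0.024 to 0.027, Nfkbib from -0.0051 to 0.081 and Birc3 from -0.0033 to 0.10. Without normoxia arrays 2 to 4 Nfkb2 was at -0.079 and -0.032 on its 2 probe sets, Rel at 0.057, Nfkbib at -0.052 and Lta at 0.081. The filter on low values removed Rel, Nfkbie and Tnfaip3, so it gave them no value. Small differences such as those of Nfkbib and Birc3 were within the spread of these arrays and not detectable with 5 per group.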
